A study of Mus musculus with 12 samples.

Results

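The IL-12 family of cytokine genes was examined in dendritic cells (DCs) of the mouse spleen. It comprises Il12a (p35), Il12b (p40), Il23a (p19), Il27 (p28) and Ebi3. Members were the probe sets of the array that carry exactly one of these symbols, which gave 5 of 45101 probe sets for 4 of the 5 genes. Il12b had 2 probe sets, Il12a, Il23a and Ebi3 had 1 each, and Il27 was not analysed here because no probe set carried its symbol alone. Only 2 genes, Ebi3 and Il12b, passed the filter on low values (above the 40th percentile of an array on at least 3 arrays), out of 15019 genes tested.

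The cytokines of this family are secreted pairs of chains. p40 joins p35 to form IL-12 and joins p19 to form IL-23, while Ebi3 joins p28 to form IL-27 and p35 to form IL-35. The alpha chains p35, p19 and p28 are helical cytokines like IL-6, whereas p40 and Ebi3 resemble a soluble cytokine receptor. DCs that sense microbes through Toll-like receptors and then receive a CD40 signal are a known source of IL-12 and IL-27, and NF-kB and interferon regulatory factors are known regulators of these genes.

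DCs came from alymphoplasia (aly) mice, whose mutation lies in Map3k14, the gene of the NF-kB-inducing kinase NIK, or from heterozygous littermates, called wild type (WT) here, which therefore carry 1 mutant allele. The groups were aly and WT mice injected intraperitoneally with 25 micrograms of LPS (a ligand of TLR4) and 100 micrograms of an agonistic antibody against CD40, and aly and WT mice left untreated. DCs of treated mice were taken 6 hours later. Each group had 3 arrays, and each array held CD11c bead-selected, flow-sorted DCs pooled from 3 mice, so p-values measure the spread between arrays of pools and not between mice. The aly mutation is present in all cells of the mouse, the labels give no sex or age of the mice, and LPS and anti-CD40 were not given separately. In such bulk samples, fewer cells of a type and less RNA per cell cannot be told apart.

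The promoters of the 2 genes that passed the filter are shown. They were picked with the treatment results known, and the part of any motif in those results was not tested. Both sequences are the 250 bases before the gene start from RefSeq (GRCm38.p6, + strand). Ebi3 lies at chr17:55952373-55952622 and Il12b at chr11:44399813-44400062, on the same chromosome as Map3k14 with 779 measured genes between them.
Ebi3 promoter: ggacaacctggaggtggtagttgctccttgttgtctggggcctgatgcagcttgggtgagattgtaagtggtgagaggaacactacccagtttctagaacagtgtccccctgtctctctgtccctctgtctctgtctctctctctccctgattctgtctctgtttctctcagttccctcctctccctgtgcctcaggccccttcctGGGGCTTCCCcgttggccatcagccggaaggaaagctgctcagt
Il12b promoter: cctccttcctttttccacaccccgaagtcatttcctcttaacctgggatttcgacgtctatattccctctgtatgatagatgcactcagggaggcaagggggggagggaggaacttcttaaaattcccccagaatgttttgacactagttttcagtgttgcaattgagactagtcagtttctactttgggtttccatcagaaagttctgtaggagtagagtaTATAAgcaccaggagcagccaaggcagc
Capitals mark motif matches, searched on both strands. In the Ebi3 window they mark GGGGCTTCCC, a match to the NF-kB consensus that starts 44 bases before the gene start, and 5% of 32851 such windows hold a match. In the Il12b window they mark TATAA, the core of a TATA box, starting 28 bases before the gene start, and 22.8% of windows hold one. The Il12b window held 0 matches to the NF-kB consensus, but sites that depart from that consensus were not searched, so NF-kB sites are not excluded there. Neither window held the core of the interferon-stimulated response element, GAAANNGAAA, found in 2.98% of windows. A match is a description of these letters and not a measured binding site.

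The arrays differed before any result. On aly treated replicate 1, the 3' over 5' signal ratio of the Actb control was 55.8, against 1.78 to 5.92 on the other aly arrays and 1.39 to 1.94 on WT arrays. For the Gapdh control this ratio was 45.7 on aly treated replicate 1 and 4.58 to 8.73 on WT arrays. On the other aly arrays it was 7.10 to 20.7, the highest being aly treated replicate 2. The hybridisation controls of aly treated replicate 1 averaged 24396, against 1933 to 3739 on the other arrays, and its rank correlation with them was 0.576 to 0.665 (0.738 to 0.883 among the others). The poly-A spike-in controls averaged 4.15 to 21.8 on the replicate 1 arrays of all groups and 52.9 to 497 on replicates 2 and 3. Of the DC genes Itgax, Flt3 and Zbtb46, the lowest reading was 44.0, for Zbtb46 on aly treated replicate 1. That lay under the median of all probe sets on that array (53.4), and without detection calls it does not show that Zbtb46 was expressed there.

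Ebi3 was the family member that treatment raised in WT DCs. Its intensity was 3417, 2534 and 2558 in WT treated DCs, against 667.9, 789.6 and 704.7 in WT untreated DCs. All 3 treated arrays lay far above all 3 untreated ones, as they did, by any margin, for 14.3% of all genes. The means were 2837 ± 503 treated and 721 ± 62.4 untreated (SD, n = 3 each), a fitted log2 difference of 1.94 ± 0.44 (SE), or 3.84-fold with a 95% interval of 2.00 to 7.39. This passed the test (adjusted p = 0.0113). It was 1 of the 2 members tested, beside 9.71% of all genes called and 4.95% called higher in this comparison. The share of calls that were higher was 51.0% as deposited and 68.2% after median centring of the arrays, and the Ebi3 difference was 1.97 after that centring. Between the replicate 1 arrays, with 1 array a group, the difference was 2.33, and over replicates 2 and 3 it was 1.75. A larger difference was fitted for 448 of the 15019 genes. Ebi3 missed the threshold when WT treated replicate 1 (adjusted p = 0.0600), WT untreated replicate 1 (0.0511) or WT untreated replicate 3 (0.0502) was left out, over a range of 0.00017 to 0.0600 in 24 alternatives.

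**Figure D1:**
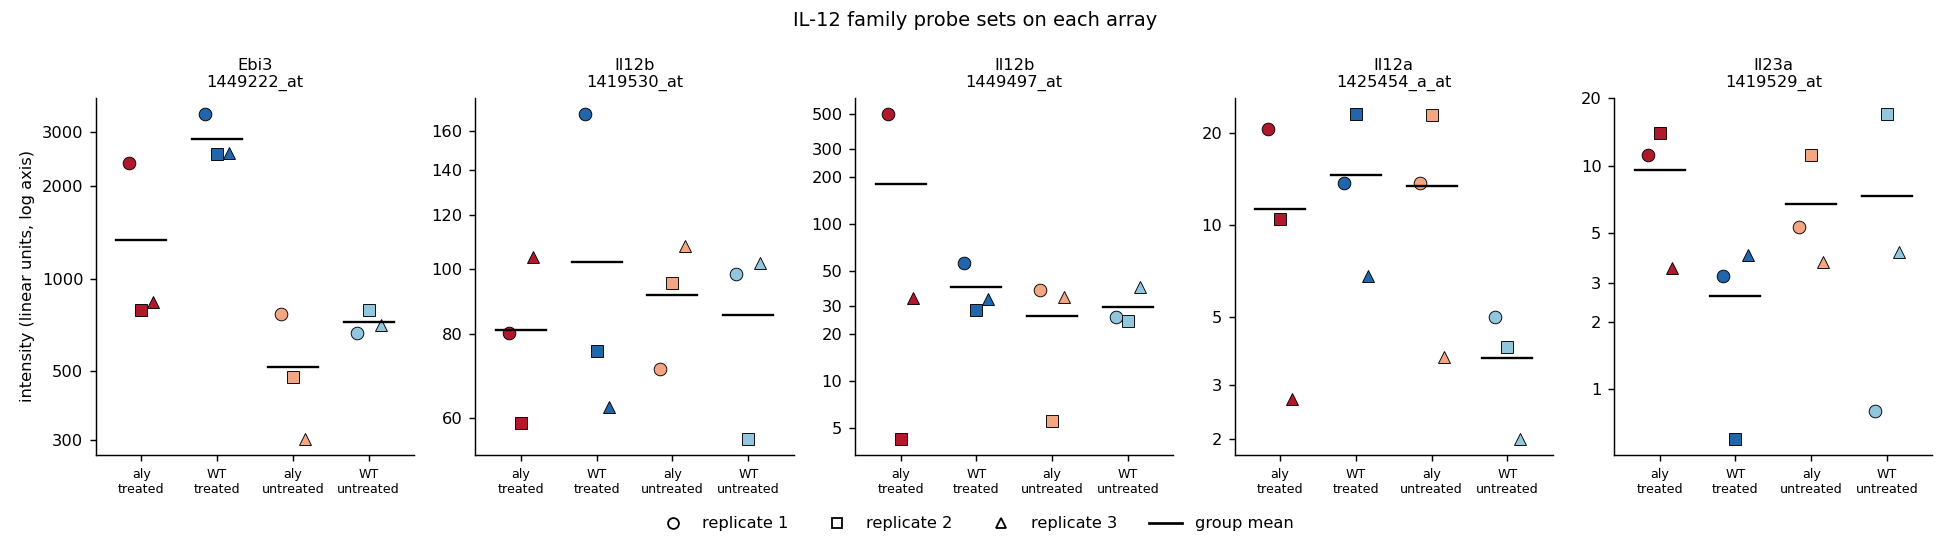
Intensity of each IL-12 family probe set (log axis, linear intensity units) on the 12 arrays, with symbols for the replicate number and a line at the group mean. The 3 WT treated arrays of Ebi3 (2534 to 3417) sit above all others, while the groups of both Il12b probe sets overlap.

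In aly DCs, Ebi3 read 2368, 793.2 and 836.8 after treatment, against 768.9, 480.7 and 302.0 untreated. The groups did not overlap, but 1 treated array stood far above the other two, which lay just above the highest untreated array. The means were 1333 ± 897 treated and 517 ± 236 untreated (SD, n = 3 each). The log2 difference of 1.24 ± 0.44 (95% interval 0.30 to 2.19) did not pass the test (adjusted p = 0.307), in a comparison where 0.486% of genes were called and 6.02% had treated arrays all above the untreated ones. By limma 0 of the 2 tested members were called here, and 1 of them, Ebi3, had an unadjusted p under 0.05. Without aly treated replicate 1, the array with the high Actb ratio, the difference was 0.74 ± 0.38 (adjusted p = 0.658). It was 1.60 between the replicate 1 arrays and 1.06 over replicates 2 and 3. Across 24 alternatives it lay between 0.65 and 1.57 with adjusted p between 0.128 and 0.700.

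Treated aly DCs had less Ebi3 signal than treated WT DCs on every array. The 3 aly values (793.2 to 2368) lay below the 3 WT values (2534 to 3417), as they did for 10.1% of all genes. The log2 difference was -1.26 ± 0.44 (95% interval -2.20 to -0.32) and did not pass the test over all arrays (adjusted p = 0.107), where 5.37% of genes were called. For this comparison too, limma called 0 of the 2 members, and Ebi3 alone had an unadjusted p under 0.05. Without aly treated replicate 1 the difference was -1.77 ± 0.38 and passed (adjusted p = 0.0107), and with replicates 2 and 3 alone it was -1.62 and passed (adjusted p = 0.0294). Between the replicate 1 arrays it was -0.53 with 1 array a group and no test. Over 24 alternatives the difference stayed between -1.77 and -0.99 with adjusted p of 0.000827 to 0.257, and it passed in 4 of them. Of the calls in this comparison, 50.9% were higher as deposited and 16.6% after median centring, where the Ebi3 difference was -1.61 (adjusted p = 0.0539).

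Untreated aly DCs did not differ in Ebi3 from untreated WT DCs beyond the spread between arrays. Their values of 302.0 to 768.9 overlapped the WT values of 667.9 to 789.6, with a log2 difference of -0.56 ± 0.44 (95% interval -1.50 to 0.38, adjusted p = 0.708). It was 0.20 between the replicate 1 arrays and -0.94 over replicates 2 and 3, so its direction differed between them. The response of aly minus that of WT was -0.70 ± 0.63 (95% interval -2.03 to 0.63, adjusted p = 0.826), and -1.21 without aly treated replicate 1 (adjusted p = 0.290), over a range of adjusted p of 0.127 to 0.972. Thus the 2 genotypes' responses of Ebi3 were not shown to differ. In these comparisons limma called 0 of the 2 tested members, and 0 had an unadjusted p under 0.05, while 0.553% and 0.153% of all genes were called. In order of mean level the groups ran WT treated, aly treated, WT untreated and aly untreated. The neighbours WT untreated and aly untreated overlapped, and the lowest aly treated array (793.2) was barely above the highest WT untreated one (789.6).

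**Figure D2:**
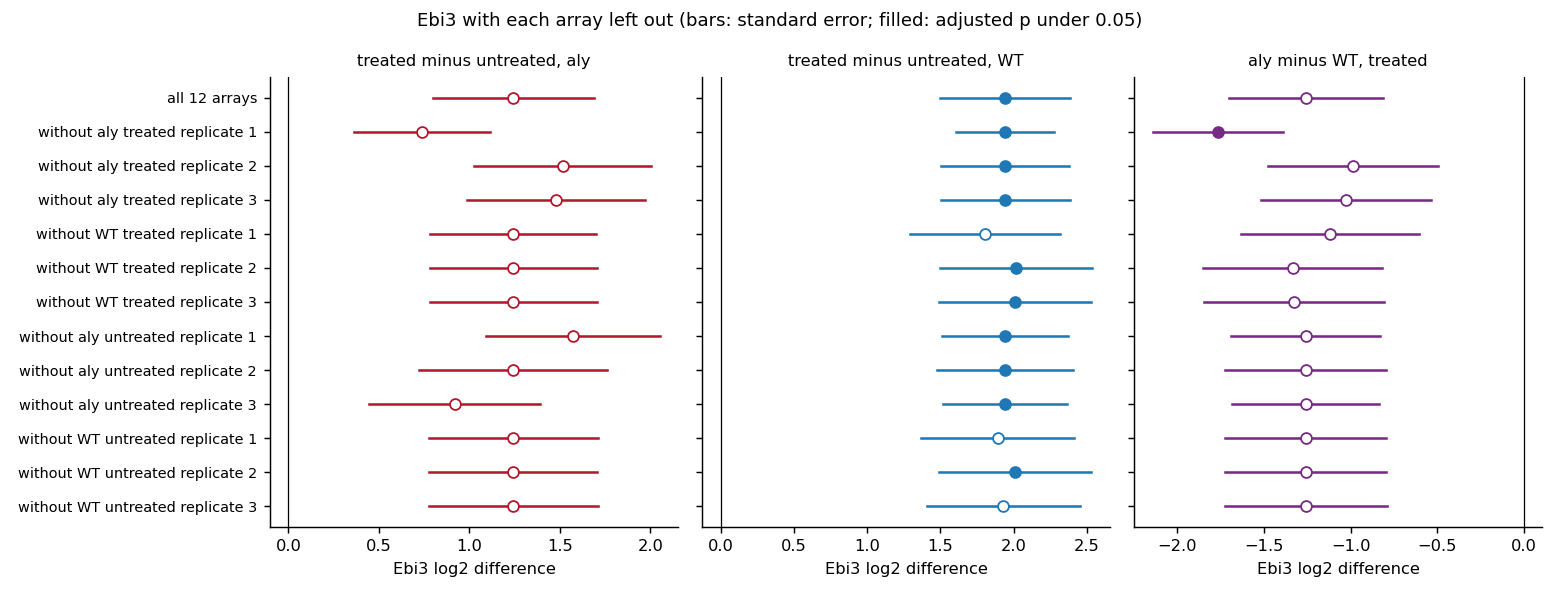
Ebi3 log2 differences (x axis, log2 of intensity plus 16) fitted with all 12 arrays and with each array left out, where bars are standard errors and filled points passed the adjusted p of 0.05. The treated aly minus WT difference is -1.26 over all arrays and -1.77 without aly treated replicate 1, the single omission in which it passed.

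Il12b, the p40 chain shared by IL-12 and IL-23, did not rise past the test in either genotype. The probe set with the higher mean, which represented the gene, read 80.3, 59.0 and 104.0 in aly treated DCs, against 71.0, 95.2 and 107.9 in aly untreated DCs. In WT it read 169.6, 75.4 and 62.4 treated, against 98.2, 55.9 and 102.1 untreated. The groups overlapped in every comparison, and a single array, WT treated replicate 1, stood high. The treatment differences were -0.16 ± 0.40 in aly (95% interval -1.0 to 0.68) and 0.15 ± 0.40 in WT (95% interval -0.69 to 0.99), with an adjusted p of 0.89 for each. For this probe set the interval in WT reaches 1.99-fold, so a smaller rise could not be told from the spread between arrays. The aly minus WT differences were -0.21 treated (adjusted p = 0.786) and 0.10 untreated (adjusted p = 0.953). The treated one was -0.55 after median centring and -0.52 after quantile normalization, and lay between -0.45 and 0.17 over the omissions of 1 array. The untreated one was -0.15 after median centring and -0.02 after quantile normalization. The difference of the responses was -0.31 ± 0.56 (adjusted p = 0.926). Between the replicate 1 arrays the treatment differences were 0.15 in aly and 0.70 in WT, and over replicates 2 and 3 they were -0.31 in aly and -0.12 in WT.

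The second Il12b probe set was above the 40th percentile on 10 of 12 arrays and gave no call either. It read 501.7, 4.3 and 33.9 in aly treated DCs, against 38.3, 5.6 and 34.2 in aly untreated DCs. In WT it read 56.7, 28.5 and 33.5 treated, against 25.7, 24.0 and 39.7 untreated. The value of 501.7 came from aly treated replicate 1 and was the one array far above the others, while the first probe set read 80.3 on the same array, the middle value of its group. The treatment difference in aly was 1.05 ± 0.78 (adjusted p = 0.601) with that array and -0.29 without it. In WT it was 0.26 ± 0.78 (adjusted p = 0.927). The treated aly minus WT difference was 0.57 (adjusted p = 0.707) with the array and -0.77 without it.

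**Figure D3:**
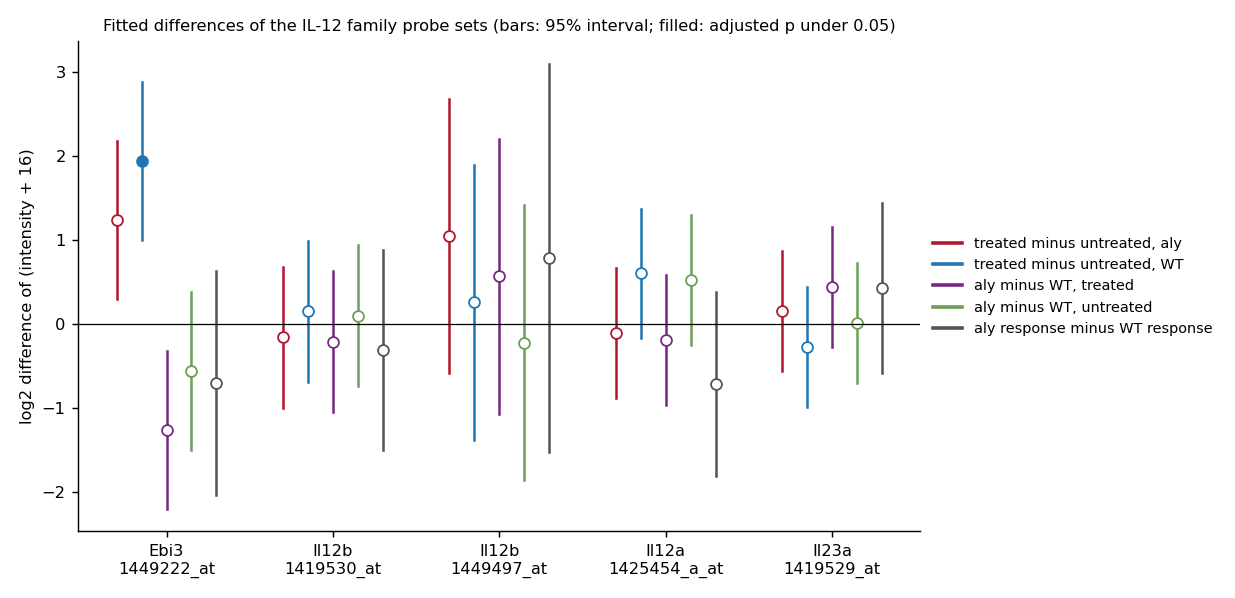
Fitted log2 differences (y axis, intensity plus 16) of the 5 probe sets in the 5 comparisons, with 95% intervals, where a filled point passed an adjusted p of 0.05. The single filled point is Ebi3 in treated minus untreated WT DCs, at 1.94.

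The probe sets of the p35 and p19 chains stayed low on nearly all arrays. Il12a read 20.6, 10.5 and 2.7 in aly treated DCs and 13.8, 23.1 and 6.8 in WT treated DCs. Untreated, it read 13.7, 22.9 and 3.7 in aly DCs and 5.0, 4.0 and 2.0 in WT DCs, and it was above the 40th percentile on 2 of 12 arrays. The WT treated arrays all lay above the WT untreated ones, but with values near or under the added offset of 16 the log2 difference was 0.60 ± 0.36 (adjusted p = 0.412 in a fit of 18193 genes with no filter). The other Il12a comparisons had adjusted p of 0.696 to 0.928. Il23a was above the 40th percentile on 1 array, with 3.5 to 14 in aly treated and 0.6 to 4.0 in WT treated DCs. Untreated it read 3.7 to 11.2 in aly and 0.8 to 17.0 in WT DCs. Its treatment difference was 0.16 ± 0.33 in aly (adjusted p = 0.876) and -0.27 ± 0.33 in WT (adjusted p = 0.792). Values this low give no order of the groups, and without detection calls neither gene is described as silent.

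The genes whose log2 values followed Ebi3 most closely over the 12 arrays were Arid5a, an RNA-binding protein (Pearson r = 0.961), Rnd1 (r = 0.961), and Stat2, a mediator of interferon signalling (r = 0.959). Without aly treated replicate 1 the 3 correlations were 0.962 (Arid5a), 0.973 (Rnd1) and 0.964 (Stat2). The treatment differences of Stat2 were 0.86 in aly and 2.73 in WT on the log2 scale, and those of Ebi3 were 1.24 in aly and 1.94 in WT. For Il12b the closest were Tsga13 (r = 0.802), Creb3 (r = 0.797) and Gimap8 (r = 0.791). These are descriptions over arrays of 4 groups, and the genes were picked as the highest of all those tested.

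Genes around the family were examined as lists. Of 61 tested genes of its receptors, regulators, inducers and relatives, 28 rose and 1 fell in WT DCs (47.5% called, against 4.95% higher and 4.75% lower over all genes, median log2 difference 1.48, against -0.12 over all genes). In aly DCs 3 rose and 0 fell (4.92%, against 0.453% higher over all genes, median 0.51, against -0.08), and 20 had an unadjusted p under 0.05. Between treated genotypes, 16 were lower and 1 higher in aly (27.9%, against 2.64% lower and 2.74% higher over all genes, median -0.83, against 0.19). Among untreated DCs limma called 0, with 9 at an unadjusted p under 0.05. With aly treated replicate 1 left out, the calls numbered 38 in WT, 2 in aly, 20 between treated genotypes, 2 between untreated ones and 5 in the difference of the responses, where 1 (Cxcl11) was called over all arrays and 22 had an unadjusted p under 0.05. The 5 were Cxcl11, Stat4, Il6, Cxcl10 and Cd40. The number called in each of the 12 omissions of 1 array was 16 in WT, 1 in aly and 4 between treated genotypes.

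**Figure D4:**
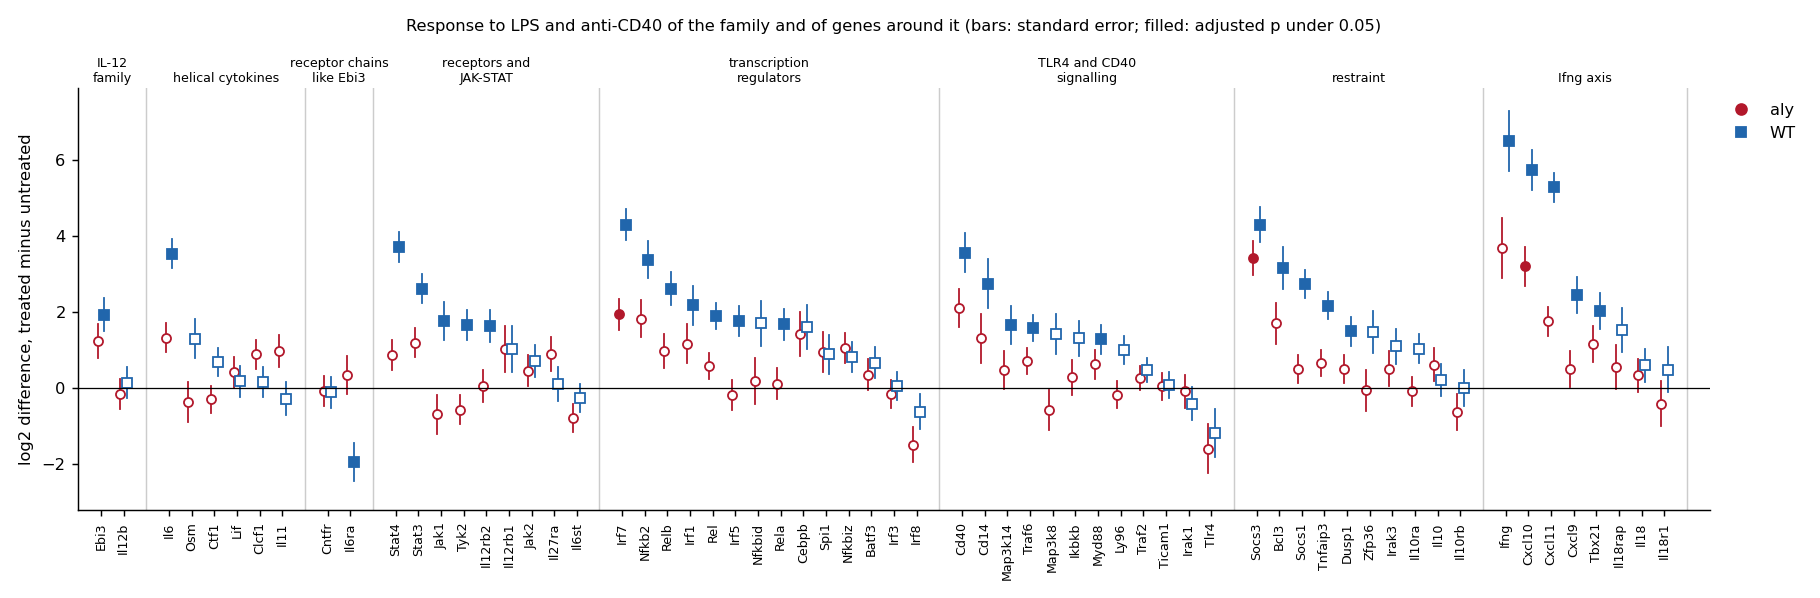
Treatment responses (y axis, log2 difference of intensity plus 16, bars are standard errors) of the 2 family genes and 61 genes around them in aly (circles) and WT (squares) DCs, filled where the adjusted p was under 0.05. In WT 28 of the 61 rose, and in aly 3 rose, namely Socs3, Cxcl10 and Irf7.

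Among receptors and their JAK-STAT signalling genes, 5 of 9 tested rose in WT DCs and 0 of 9 passed in aly DCs, where 2 had an unadjusted p under 0.05. Stat4, the transcription factor through which IL-12 acts, read 253.1, 272.1 and 206.1 in aly treated DCs, against 2713, 2963 and 4289 in WT treated DCs. Every treated aly array was far below every treated WT array, by -3.66 on the log2 scale (adjusted p = 0.000405). Stat4 differed by 0.88 ± 0.40 between treated and untreated aly DCs (adjusted p = 0.38) and by 3.72 ± 0.40 in WT (adjusted p = 2.28e-05). The difference of those responses, -2.85, missed the threshold over all arrays (adjusted p = 0.0632) and passed without aly treated replicate 1 (-2.88, adjusted p = 0.0259, over a range up to 0.266 in the omissions). Stat3, which IL-23 and IL-27 activate, rose by 2.62 in WT. Il12rb2, the signalling chain of the IL-12 receptor, read 9.0, 2.9 and 19.4 in aly treated DCs, against 32, 76.2 and 98.6 in WT treated DCs, a difference of -1.64 (adjusted p = 0.0325). That call was lost without 4 of the 12 arrays (WT treated replicates 2 and 3, aly treated replicate 2 or WT untreated replicate 3; adjusted p up to 0.199). The kinases Tyk2 (-1.79) and Jak1 (-2.25) were also called lower in treated aly DCs, but another probe set differed by 0.08 for Tyk2, and the others by -2.25 to 0.58 for Jak1. Both calls were lost without WT treated replicate 3 or aly treated replicate 2 (adjusted p up to 0.117 for Tyk2 and 0.133 for Jak1).

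Among transcription regulators, 7 of 14 tested rose in WT DCs. The 4 smallest p belonged to Irf7 (4.31), a mediator of interferon responses, and to the NF-kB subunits Nfkb2 (3.39), Relb (2.62) and Rel (1.91), all as log2 differences. In aly DCs 1 of 14 passed, Irf7, with a difference of 1.95 (adjusted p = 0.0399), which held in 1 of the 12 omissions and had an adjusted p of 0.0773 without aly treated replicate 1. Treated aly DCs were lower than treated WT DCs in Rel (-1.95), Irf7 (-2.20), Relb (-1.92) and Irf5 (-1.46). Rel is a known activator of Il12b, and it read 255.4, 174.8 and 340.4 in aly treated against 1002, 806.9 and 1248 in WT treated DCs, with no overlap. Without WT treated replicate 3 the calls of Rel (adjusted p = 0.0597), Irf7 (0.0683) and Relb were lost, and that of Relb also without aly treated replicate 2 (adjusted p up to 0.135). The call of Irf5 was lost in 9 of 12 omissions, and its other probe set differed by 0.02.

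Among genes that sense LPS and CD40 ligation, 5 of 12 tested rose in WT DCs, the first 4 by p being Cd40 itself (3.58), the adaptor Traf6 (1.59), the LPS co-receptor Cd14 (2.75) and the adaptor Myd88 (1.3). Cd40 passed in all 12 omissions of 1 array, Traf6 in 11, Cd14 in 9 and Myd88 in 5. In WT DCs the other 3 Traf6 probe sets differed by less, 0.13 to 1.32, and the other 2 of Cd40 by 3.75 and 4.11. In aly DCs 0 of 12 passed and 2 had an unadjusted p under 0.05. The smallest p were those of Cd40, whose difference in aly was 2.11 ± 0.50 (adjusted p = 0.0868), and Tlr4, with -1.59 ± 0.64 (adjusted p = 0.343). Without aly treated replicate 1 they were 1.37 for Cd40 (adjusted p = 0.131) and -0.67 for Tlr4 (adjusted p = 0.747), and the other 2 Tlr4 probe sets differed by -0.43 to 0.00. Map3k14, the mutated gene, read 81.8, 260.6 and 546.3 in aly treated DCs, against 461.9, 554.8 and 540.9 in WT treated DCs, and its transcript level does not check the genotype because the aly allele carries a point mutation. Map3k8, the kinase TPL2, was the 1 gene of this list called between treated genotypes over all arrays, at -2.74 in aly (adjusted p = 0.00968). It read 32.5, 195.4 and 255.5 in aly treated against 997.4, 644.8 and 1220 in WT treated DCs, and the call was lost without WT treated replicate 3 (adjusted p = 0.0816). Without aly treated replicate 1, 3 of the 12 were called. Map3k8 was then at -1.97, Cd40 at -1.61 (adjusted p = 0.0119, against -0.88 and 0.314 over all arrays) and Tlr4 at 2.08 (adjusted p = 0.0147, against 1.16 and 0.293). Over all arrays the other 2 probe sets differed by -2.46 and -0.84 for Cd40, and by 0.83 and 1.60 for Tlr4.

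Among genes known to restrain IL-12 production or signalling, 5 of 10 tested rose in WT DCs. They include Socs3 (4.30) and Socs1 (2.74), inhibitors of cytokine receptor signalling, Tnfaip3 (2.18), an inhibitor of NF-kB, and Bcl3 (3.17), an atypical IkB protein. In aly DCs 1 of 10 passed. This was Socs3, with 2613, 650.5 and 1324 in aly treated against 122.2, 86.0 and 116.4 in aly untreated DCs, a log2 difference of 3.43 (adjusted p = 0.00245) that passed in all 12 omissions of 1 array. Treated aly DCs were lower than treated WT DCs in Socs1 (-2.10), Tnfaip3 (-1.70) and the phosphatase Dusp1 (-1.47). Il10 was not called, with a difference of 0.63 ± 0.43 in aly (0.23 without aly treated replicate 1) and 0.22 ± 0.43 in WT. The call of Tnfaip3 was lost without WT treated replicate 3 or aly treated replicate 2, and that of Dusp1 in 5 of 12 omissions.

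Of the helical cytokines related to the alpha chains, 1 of 6 tested rose in WT DCs, Il6, and 0 of 6 passed in aly DCs, where 3 had an unadjusted p under 0.05. Il6 read 82.4, 28.2 and 26.4 in aly treated DCs, against 315.8, 440.0 and 301.1 in WT treated DCs, with no overlap and a difference of -2.67 (adjusted p = 0.00213). Its treatment difference was 1.33 ± 0.39 in aly (adjusted p = 0.205) and 3.54 ± 0.39 in WT (adjusted p = 2.63e-05). The difference of those responses was -2.21 (adjusted p = 0.191), and -2.61 without aly treated replicate 1, where it passed (adjusted p = 0.0175). Of the soluble receptor chains related to p40 and Ebi3, Il6ra fell by 1.94 on the log2 scale in WT DCs (adjusted p = 0.0223), which held in 8 of 12 omissions, and Cntfr did not pass. Il6ra read 832.1, 275.5 and 435.0 in aly treated DCs, against 32.1, 107.8 and 34.5 in WT treated DCs, a difference of 2.84 (adjusted p = 0.00578, lost without WT treated replicate 3). Its other probe set differed by 0.66, and by -0.42 in the WT treatment.

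The IL-12, IL-18 and interferon-gamma axis had 5 of 8 tested genes higher in treated WT DCs. Ifng, which IL-12 is known to induce, read 1286, 149.3 and 179.7 in aly treated DCs, against 5.3, 0.8 and 39.0 in aly untreated DCs, a difference of 3.69 that missed the threshold (adjusted p = 0.0514), and 2.74 without aly treated replicate 1 (adjusted p = 0.126). In WT it read 6302, 2233 and 640.9 treated, against 16.2, 4.5 and 2.5 untreated, a difference of 6.51 (adjusted p = 6.51e-05). Both treated groups were clear of their untreated groups. Ifng in treated aly minus WT DCs was -2.60 over all arrays (adjusted p = 0.0661) and -3.55 without aly treated replicate 1 (adjusted p = 0.00606). The interferon-induced chemokines Cxcl11 (-3.45), Cxcl10 (-2.62) and Cxcl9 (-1.94) were lower in treated aly than in treated WT DCs. Cxcl10 was the 1 gene of the list to pass in aly, at 3.21 (adjusted p = 0.0139, lost without aly untreated replicate 2 or 3), and its rise in WT was 5.74. The call of Cxcl10 between treated genotypes was lost without WT treated replicate 3, and that of Cxcl9 in 4 of 12 omissions. The other probe sets of Cxcl9 and Cxcl11 differed by less, -0.47 for Cxcl9 and -0.54 for Cxcl11. Without aly treated replicate 1 the difference of the responses passed for Cxcl10 (-3.17, adjusted p = 0.0213) and missed the threshold over all arrays (-2.53, adjusted p = 0.301). Il18 went the other way, with aly minus WT differences of 1.29 ± 0.43 treated (adjusted p = 0.0905) and 1.56 ± 0.43 untreated (adjusted p = 0.145). Neither was called over all arrays, and the untreated one passed without aly treated replicate 1 (adjusted p = 0.0427).

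Markers of cell types moved with the groups. Of the cDC1 markers (the CD8 alpha DC type, a known source of IL-12), 6 of 9 tested fell and 1 rose in WT DCs. Their summed intensity was 5699 to 9670 in WT treated, against 13362 to 22072 in WT untreated DCs. In aly DCs 0 of 9 passed (5 at an unadjusted p under 0.05), with sums of 6054 to 13856 treated and 20870 to 22387 untreated. Between treated genotypes 1 of the 9 was called higher in aly and 0 lower. The cDC1 marker Xcr1, a chemokine receptor, read 32.8, 66.2 and 115.1 in aly treated DCs, against 227.3, 197.4 and 400.2 in aly untreated DCs. In WT it read 16.1, 201.1 and 1.9 treated, against 578.6, 417.7 and 1881 untreated. Among 7 tested markers of cDC2, another DC type, 1 rose and 1 fell in WT DCs, and 2 were called lower in treated aly than in treated WT DCs. Their sums overlapped, at 2607 to 3763 in aly treated and 2867 to 3828 in WT treated DCs. Among 6 plasmacytoid DC markers, 2 rose and 1 fell in WT DCs, and 1 was called lower in treated aly DCs. Those sums were 1205 to 3660 in aly treated and 1884 to 2648 in WT treated DCs. Of 10 red pulp macrophage markers, 4 were higher in aly treated than in WT treated DCs and 6 in aly untreated than in WT untreated DCs. Their sums were 19828 to 52609 in aly treated, 2339 to 13601 in WT treated, 28315 to 39864 in aly untreated and 1931 to 11134 in WT untreated DCs. Of 5 natural killer markers, 1 rose in WT DCs (Gzma), and 1 was called lower in treated aly than in treated WT DCs. The sums of these 5 were 241.1 to 678.5 in aly treated and 476 to 1770 in WT treated DCs. Untreated, they were 171.8 to 606 in aly and 141.7 to 314.5 in WT DCs. Of 3 erythroid markers, 1 (Slc4a1) was called higher in aly in both comparisons of genotypes. Their sums were 484.7 to 2843 in aly treated against 19 to 335.6 in WT treated DCs, and 744.8 to 1756 in aly untreated against 38.9 to 174.6 in WT untreated DCs, with no overlap. Of 5 monocyte markers, 1 (Csf1r) was called higher in treated aly than in treated WT DCs, with sums of 10189 to 15047 in aly treated and 662.4 to 4754 in WT treated DCs. The 5 neutrophil markers gave 0 calls by limma in either comparison of genotypes, with 0 at an unadjusted p under 0.05, but their sum reached 14735 in aly treated DCs, against 973.2 at most in WT treated DCs, and S100a9 read 7325, 108.9 and 37.6 in aly treated DCs. The value of 7325 came from aly treated replicate 1, the array with the highest aly value of Ebi3. The next highest S100a9 value, 1267.5, came from aly untreated replicate 3, the array with the lowest value of Ebi3 (302.0). No tested marker was at 0 on any array, but values went down to 0.7 (Ncr1, aly untreated replicate 1). Without detection calls, a value above 0 does not show that a cell type was present. The part of these markers in the values of Ebi3, Il12b and Ifng was not tested.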

How the data were processed

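Transcripts of 12 samples, 3 for each of 4 groups taken from the labels, were measured on Affymetrix mouse arrays. The deposited values are intensities on a linear scale, 1 per probe set and array, and their 2% trimmed mean was 150.001 on every array, so the arrays had been scaled to a common target. The software is not given in the sources used here, nor is any background correction. Per the labels, RNA was amplified over more than 1 round before labelling. No columns were left unmatched (0).

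Probe sets were named from the platform annotation: 34958 had 1 symbol, 932 several and 9211 none. Of those with 1 symbol, 34754 matched the gene table by Entrez identifier, which changed 0 symbols. Intensities were used as log2(intensity + 16) without further normalization, so fold changes of low genes are understated. The number of arrays limits the precision. Controls (64) were left out, 34205 probe sets passed the filter, and the probe set with the highest mean represented each gene. Linear models were fitted with limma 3.58.1 (R 4.3.3, with data.table at version 1.17.8) to the 12 arrays together, 1 mean for each group, with empirical Bayes moderation (8 residual and 8.04 prior degrees of freedom), after tests on simulated data. All adjusted p are Benjamini-Hochberg values of limma's two-sided moderated test over all genes of a comparison, called under 0.05. The median standard error was 0.43 log2 units, and 0.61 for the difference of the responses. Members below the filter were read from a fit with no filter, and the second Il12b probe set from a fit of every filtered probe set.

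The members and all lists were chosen with earlier results of these data known, so none is independent evidence. All members were named. Of each list the called genes were named, at most 4 with the smallest p per comparison, and for each tested member the 3 genes with the highest Pearson r over the 12 arrays. Xcr1 was chosen after its values were seen, and S100a9 was named though it had no call.

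Alternatives were other offsets, filters, scalings, array weights, the replicate number as a block, replicates 2 and 3 alone, only the groups compared, and omission of each array.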

Additional observations from a re-analysis of the deposited data

Results flagged for a closer look

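The difference of the treatment responses passed the test over all arrays for 1 gene of the lists, Cxcl11, an interferon-induced chemokine, whose aly response minus WT response was -3.53 ± 0.55 on the log2 scale (adjusted p = 0.0173). It read 102.0, 101.6 and 119.1 in aly treated DCs, 1473, 1396 and 1155 in WT treated DCs, 19.5, 32.6 and 12 in aly untreated DCs, and 27.4, 3.3 and 33 in WT untreated DCs. The call was lost in 6 of 12 omissions of 1 array (each WT treated array, WT untreated replicate 2, and aly untreated replicates 1 and 2; adjusted p up to 0.0746), and it was -3.50 without aly treated replicate 1. Without that array 4 further genes passed, Stat4 (-2.88), Il6 (-2.61), Cxcl10 (-3.17) and Cd40 (-2.20). Another Cxcl11 probe set differed by -0.54 between treated aly and WT DCs.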

How the results depend on the processing

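The number of family members called in treated minus untreated WT DCs was 1 and lay between 0 and 1 over the omissions of 1 array. In treated aly minus WT DCs it was 0, and 1 (Ebi3) with array weights (-1.73, adjusted p = 0.000827), with replicates 2 and 3 alone, without aly treated replicate 1 (range 0 to 1 over the omissions), and without that array and with the replicate block (-1.63, adjusted p = 0.0153, an alternative chosen after seeing the data). The cause was not tested. The other 3 comparisons called 0 members under every alternative run, and no member reversed past the test. Deviations of same-numbered arrays from their group means correlated at 0.051 to 0.303, over 0.1 in 8 of 12 cases, so same-numbered arrays may share variation. The main fit did not pair them, because the labels do not say what a replicate number marks. With the replicate block alone, Ebi3 had an adjusted p of 0.00605 in the WT treatment and 0.0651 in treated aly minus WT, and the block changed no call of a member. Among the 61 genes of the lists it called 31 in the WT treatment, 4 in the aly treatment and 19 in treated aly minus WT. Ifng passed with it both in the aly treatment (adjusted p = 0.0266) and in treated aly minus WT (adjusted p = 0.0359). The fits of Il12a and Il23a without a filter, and of the second Il12b probe set, called none under 22 alternatives each.

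The WT treatment called 1458 genes (587 to 2843 over the omissions, 893 to 3370 under other alternatives), the aly treatment 73 (13 to 102, and 6 to 164), untreated aly minus WT 83 (0 to 396, and 0 to 617), treated aly minus WT 807 (81 to 1544, and 27 to 2886), and the difference of the responses 23 (1 to 113, and 1 to 360). The median difference of all genes in treated aly minus WT was 0.19 as deposited and -0.16 after median centring, and Ebi3 stood at -1.45 relative to it under both. Signals near the offset (Il12a, Il23a) limit what could be measured of those chains.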
